A study of Mus musculus with 8 samples.

Results

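The actin cytoskeleton of mouse brain was examined through 44 named genes, found by their symbols among the 55780 genes of the deposited table, each in 1 row. The group holds the cytoplasmic actins, the proteins that nucleate, cap and sever filaments, the crosslinkers and tropomyosins, non-muscle myosin with its kinases, the linkers of filaments to membranes and adhesions, lamin A/C and the transcription factor SRF. Of these, 43 had a mean of at least 1 FPKM (fragments scaled to gene length and to library size) in either group and were tested, while the capping protein gene Capg stood below that level.

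The libraries were 4 named Ep1 and 4 named Ctrl, from C57BL/6 brain, with 15038147 to 17772972 fragments each. Per the labels, Ep1 1 and 2 received PDT at 10 J/cm2, Ep1 3 and 4 received PDT at 20 J/cm2, and Ctrl was untreated. The series title names MNP and its design text magnetic force, so Ep1 is used here as a group name. The labels name no transgene, pooling or age. They do not state that each library is its own animal, so every p-value speaks to scatter among these 8 libraries alone, which could be technical. The labels also name brain microvessel endothelial cells, but the neuronal gene Camk2a stood at 447 ± 19.2 FPKM in Ep1 and 442 ± 18.4 in Ctrl (SD, n = 4 each), against 32.9 ± 6.18 FPKM in Ep1 and 21.1 ± 3.51 in Ctrl for the endothelial gene Cldn5. The endothelial gene Itm2a went the other way, at 10.9 ± 0.862 FPKM in Ep1 and 25.8 ± 1.58 in Ctrl.

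Actin exists as monomers and filaments. The Arp2/3 complex starts branched filaments and formins unbranched ones, cofilin severs them, tropomyosins and calponins coat their sides, and alpha-actinins and filamins crosslink them. Non-muscle myosin II pulls on filaments, and ezrin, radixin and moesin tie them to the plasma membrane. When monomers are used up, the coactivators MRTF-A and MRTF-B enter the nucleus and, with SRF, drive many genes of the actin cytoskeleton through a sequence called the CArG box. In brain, actin fills dendritic spines, shapes glial processes and holds the junctions of vessel walls.

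In Ep1 the group was higher: 29 of 43 tested genes passed the threshold upward (limma on log2(FPKM + 1), Benjamini-Hochberg adjusted p of 0.05 or less) and 0 downward. Over all 14710 tested genes the upward share was 15.5% and the downward share 10.6%. The group's median log2 change was 0.45, against 0.01 over all tested genes. The Ep1 and Ctrl values did not overlap for 31 of the 44 genes, all higher in Ep1, where 17.7% of all tested genes were separated in that direction. An unadjusted limma p under 0.05 was found for 32 of 43, and its share over all tested genes was not counted. The 44 genes summed to 1647 to 1798 FPKM in Ep1 and to 1306 to 1433 FPKM in Ctrl. The split of calls over all genes moved with the scaling, from 2275 higher and 1566 lower to 1946 and 1996 with quantile normalization, 1966 and 2045 without mitochondrial genes and CT010467.1, and 2137 and 2208 with voom, while the count of higher actin genes was 27, 29 and 29 in those settings.

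**Figure D1:**
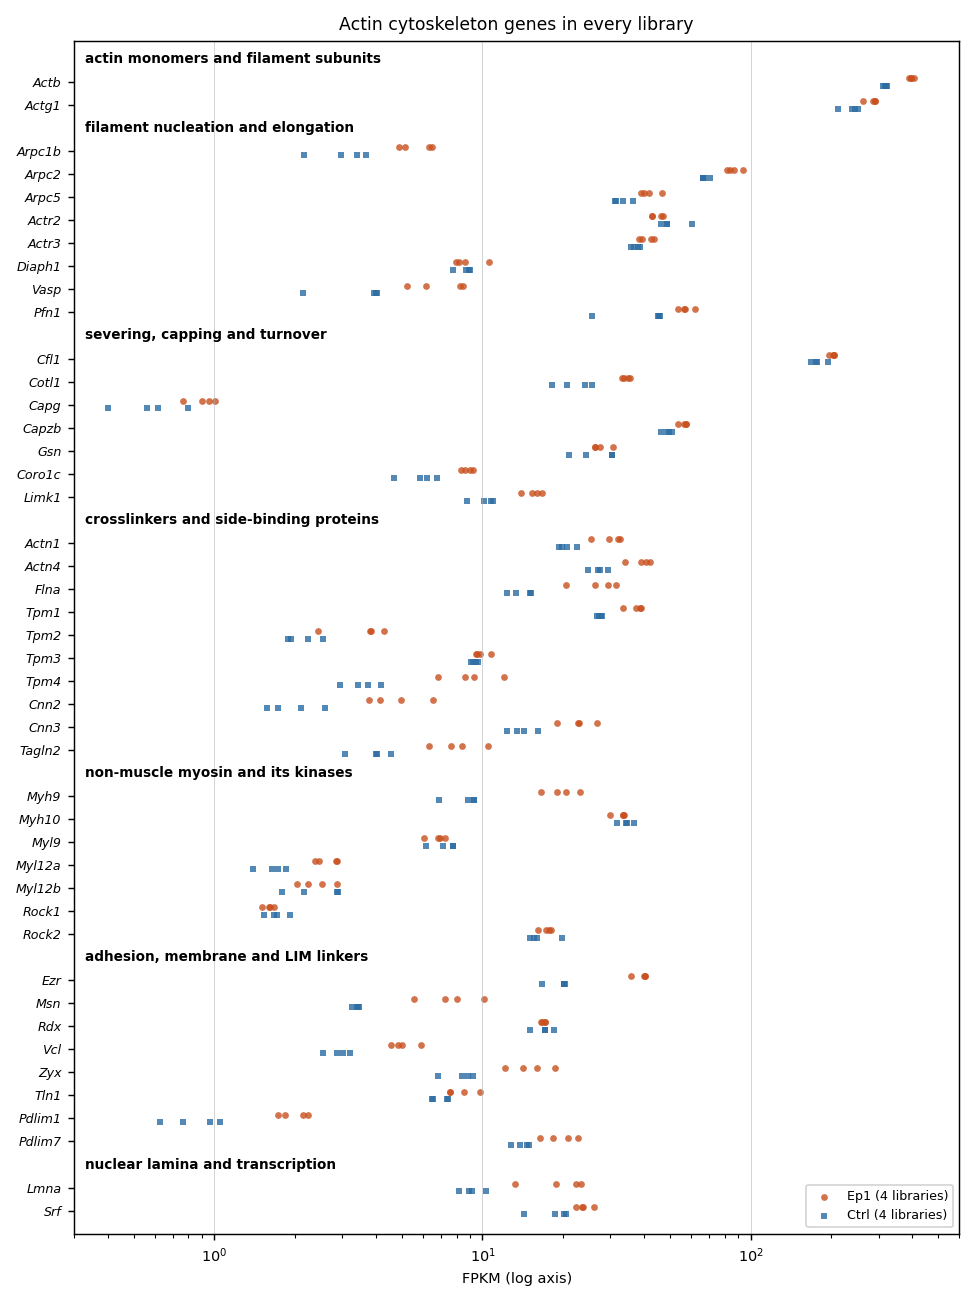
FPKM of the 44 genes in every library on a log axis, grouped by role, with Ep1 as orange circles and Ctrl as blue squares. Ep1 lies to the right of Ctrl without overlap for 31 genes, and Myh10, Rdx, Rock1, Rock2, Tpm3 and Diaph1 are among those where the groups overlap.

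The cytoplasmic actins were the most abundant genes of the group. Actb, which encodes beta-actin, stood at 395, 389, 405 and 395 FPKM in Ep1 1 to 4, against 313, 321, 317 and 321 FPKM in Ctrl 1 to 4. Every Ep1 library lay above every Ctrl library, and the spread within each group was small (log2 change 0.32 ± 0.05 SE, limma adjusted p = 0.00244). Actg1, which encodes gamma-actin, had 291, 262, 286 and 290.5 FPKM in Ep1 1 to 4, against 244, 239, 212 and 252 FPKM in Ctrl 1 to 4. Its Ep1 values were again all higher (log2 change 0.26 ± 0.07 SE, limma adjusted p = 0.0267), with Ep1 2 far below the other Ep1 libraries. The call was lost without Ep1 1, Ep1 3, Ep1 4 or Ctrl 2 (limma adjusted p = 0.0588 to 0.0809). Actb and Actg1 encode nearly identical proteins, and both have close copies in the genome, so fragments shared between copies leave the single values uncertain.

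**Figure D2:**
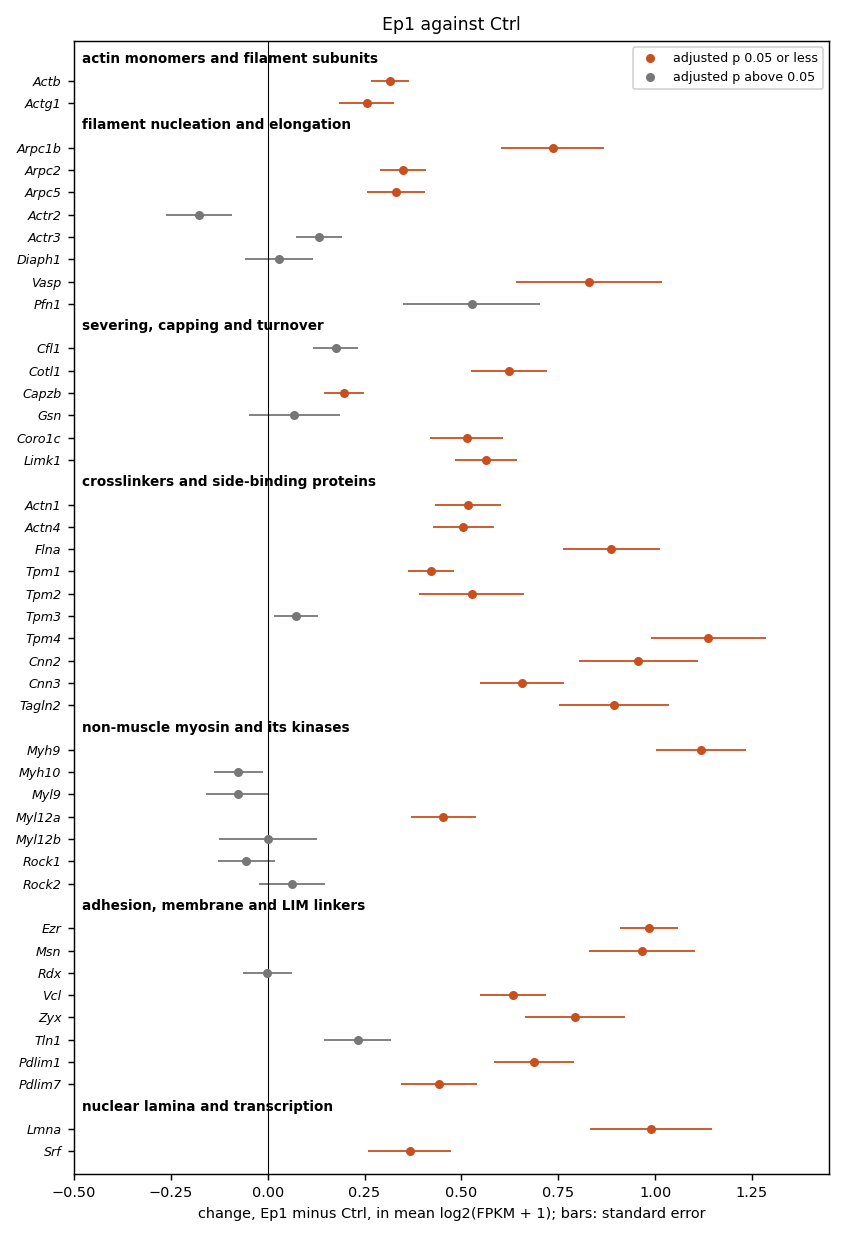
Change in mean log2(FPKM + 1), Ep1 minus Ctrl, with its standard error for the 43 tested genes, grouped by role. The 29 genes called are orange and lie right of 0; the 14 others are grey, and 5 of them lie left of 0.

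Among nucleators and elongation factors 4 of 8 rose. Vasp, which protects growing filament ends from capping, had 6.18, 5.22, 8.44 and 8.26 FPKM in Ep1 1 to 4, against 3.99, 3.94, 2.15 and 4.03 FPKM in Ctrl 1 to 4. All Ep1 libraries were higher, and Ctrl 3 lay far below the other controls (log2 change 0.83 ± 0.19 SE, limma adjusted p = 0.0134). Arpc1b, a regulatory subunit of the Arp2/3 complex, stood at 4.86, 5.15, 6.34 and 6.46 FPKM in Ep1 1 to 4, against 3.40, 3.68, 2.15 and 2.96 FPKM in Ctrl 1 to 4, with no overlap (log2 change 0.74 ± 0.13 SE, limma adjusted p = 0.00453). The subunit genes Arpc2 (86.5 ± 5.38 FPKM in Ep1 and 67.6 ± 1.98 in Ctrl, SD, n = 4 each) and Arpc5 (41.9 ± 3.53 FPKM in Ep1 and 33.1 ± 2.50 in Ctrl) rose as well. The actin-related subunits themselves did not pass: Actr2 averaged 44.8 ± 2.28 FPKM in Ep1 and 51.1 ± 6.35 in Ctrl (limma adjusted p = 0.151) and Actr3 41 ± 2.49 FPKM in Ep1 and 37.2 ± 1.33 in Ctrl (limma adjusted p = 0.126). The formin gene Diaph1 averaged 8.83 ± 1.18 FPKM in Ep1 and 8.60 ± 0.560 in Ctrl (limma adjusted p = 0.832). Pfn1, which encodes the monomer-binding profilin 1, had 56.2, 53.8, 62.1 and 57.1 FPKM in Ep1 1 to 4, against 45, 45.5, 25.5 and 45.9 FPKM in Ctrl 1 to 4. The groups did not overlap, but Ctrl 3 widened the spread and the gene missed the threshold (log2 change 0.53 ± 0.18 SE, limma adjusted p = 0.0562); without Ctrl 3 it passed, with a smaller change (log2 change 0.32, limma adjusted p = 0.00402).

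Of the severing, capping and turnover genes 4 of 6 tested rose. Limk1, the kinase that inactivates cofilin, averaged 15.5 ± 1.14 FPKM in Ep1 and 10.2 ± 0.995 in Ctrl (SD over 4 libraries, log2 change 0.56 ± 0.08 SE, limma adjusted p = 0.00162). Cofilin's own gene Cfl1 had 205, 195, 204 and 203 FPKM in Ep1 1 to 4, against 175, 177, 168 and 194 FPKM in Ctrl 1 to 4. The groups were separated by less than 1 FPKM between Ep1 2 and Ctrl 4, and the change missed the threshold (log2 change 0.17 ± 0.06 SE, limma adjusted p = 0.0561), passing without Ctrl 3 or without Ctrl 4 (limma adjusted p = 0.0495 and 0.0264). Cotl1, an actin-binding protein of the cofilin family, averaged 34.4 ± 1.09 FPKM in Ep1 and 22.2 ± 3.36 in Ctrl (log2 change 0.62 ± 0.10 SE, limma adjusted p = 0.00251), and the coronin gene Coro1c 8.77 ± 0.412 FPKM in Ep1 and 5.88 ± 0.897 in Ctrl (log2 change 0.51 ± 0.09 SE, limma adjusted p = 0.00472). Capzb, the beta subunit of the barbed-end capping protein, rose by a factor of 1.15 in its mean (limma adjusted p = 0.0228), a call lost without Ep1 1, Ep1 3, Ep1 4, Ctrl 1 or Ctrl 2 (limma adjusted p = 0.0507 to 0.0651). The gelsolin gene Gsn averaged 27.7 ± 2.05 FPKM in Ep1 and 26.6 ± 4.66 in Ctrl and did not pass (limma adjusted p = 0.688). Capg, below the filter, averaged 0.907 ± 0.105 FPKM in Ep1 and 0.594 ± 0.164 in Ctrl.

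Of the crosslinkers and side-binding proteins 9 of 10 rose. Tpm4, a short tropomyosin of non-muscle cells, had 8.61, 6.80, 9.29 and 12 FPKM in Ep1 1 to 4, against 3.76, 4.18, 2.93 and 3.43 FPKM in Ctrl 1 to 4. Its lowest Ep1 value was above its highest Ctrl value, and its mean was 2.57 times that of Ctrl (log2 change 1.14 ± 0.15 SE, limma adjusted p = 0.00119). Cnn2, which encodes calponin 2, stood at 4.16, 3.77, 4.99 and 6.51 FPKM in Ep1 1 to 4, against 2.11, 1.73, 1.57 and 2.58 FPKM in Ctrl 1 to 4, without overlap (log2 change 0.96 ± 0.15 SE, limma adjusted p = 0.00276). Tagln2, a calponin-related protein of non-muscle cells, had 7.62, 6.31, 8.39 and 10.5 FPKM in Ep1 1 to 4, against 4.55, 4.04, 3.07 and 4.02 FPKM in Ctrl 1 to 4, where Ep1 4 was highest and Ctrl 3 lowest (log2 change 0.89 ± 0.14 SE, limma adjusted p = 0.00263). Flna, the filamin that links filaments into networks, had 26.2, 20.5, 29.4 and 31.6 FPKM in Ep1 1 to 4, against 15.2, 15, 13.3 and 12.4 FPKM in Ctrl 1 to 4. All Ep1 values exceeded all Ctrl values (log2 change 0.89 ± 0.13 SE, limma adjusted p = 0.00160). Both alpha-actinin genes rose, Actn1 averaging 29.9 ± 3.26 FPKM in Ep1 and 20.5 ± 1.41 in Ctrl and Actn4 38.9 ± 3.53 FPKM in Ep1 and 27.1 ± 1.89 in Ctrl (SD, n = 4 each). Cnn3 and Tpm1 rose by factors of 1.62 and 1.35 in their means. Tpm2 passed (log2 change 0.53 ± 0.14 SE, limma adjusted p = 0.0208) although its lowest Ep1 value, 2.43 FPKM, lay below its highest Ctrl value, 2.55 FPKM. It did not pass without Ep1 1, Ep1 3, Ep1 4 or Ctrl 1 (limma adjusted p = 0.0530 to 0.0613). Tpm3 averaged 9.87 ± 0.615 FPKM in Ep1 and 9.33 ± 0.251 in Ctrl and did not pass (limma adjusted p = 0.368). A copy of it, Tpm3-rs7, named after its values were seen, held more fragments per length than Tpm3, with 40.3 ± 1.02 FPKM in Ep1 and 35.5 ± 0.927 in Ctrl (limma adjusted p = 0.0247), so how fragments were split between the copies is unknown.

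Non-muscle myosin II split by heavy chain. Myh9, the heavy chain of myosin IIA, had 19, 16.5, 20.5 and 23.2 FPKM in Ep1 1 to 4, against 9.29, 9.31, 6.87 and 8.83 FPKM in Ctrl 1 to 4. Ep1 was higher in every library, with a mean 2.31 times that of Ctrl (log2 change 1.12 ± 0.12 SE, limma adjusted p = 0.000471). Myh10, the heavy chain of myosin IIB and the more abundant of the pair here, had 33.7, 33.4, 29.9 and 33.4 FPKM in Ep1 1 to 4, against 34.4, 34.7, 31.8 and 36.7 FPKM in Ctrl 1 to 4. Its groups overlapped and it did not pass (log2 change -0.08 ± 0.06 SE, limma adjusted p = 0.396); with quantile normalization it passed downward (log2 change -0.17, limma adjusted p = 0.0481). The kinases Rock1 and Rock2, which activate myosin II, did not pass. Rock1 had 1.68, 1.60, 1.51 and 1.61 FPKM in Ep1 1 to 4, against 1.71, 1.67, 1.91 and 1.53 FPKM in Ctrl 1 to 4. Rock2 had 18, 17.3, 16.1 and 17.8 FPKM in Ep1 1 to 4, against 15, 15.5, 19.8 and 16 FPKM in Ctrl 1 to 4. In both kinases the groups overlapped (limma adjusted p = 0.604 for Rock1 and 0.615 for Rock2). Of the regulatory light chains, Myl12a rose, averaging 2.63 ± 0.253 FPKM in Ep1 and 1.65 ± 0.194 in Ctrl (log2 change 0.45 ± 0.08 SE, limma adjusted p = 0.00497), while Myl12b averaged 2.41 ± 0.359 FPKM in Ep1 and 2.43 ± 0.546 in Ctrl and Myl9 6.76 ± 0.515 FPKM in Ep1 and 7.20 ± 0.758 in Ctrl, neither passing. Myl12a and Myl12b are near-identical neighbours on chromosome 17, 2765 bases apart in the table's coordinates, so their single values are uncertain. A further gene that GENCODE M21 also names Myl12b, on the same strand, shares 26.7% of the exon bases of the Myl12b row used here and 13.8% of those of Myl12a, and averaged 1.22 FPKM over the 8 libraries.

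Of the linkers to membrane and adhesions 6 of 8 rose. Ezr, which encodes ezrin, had 40.4, 35.8, 40.4 and 40.1 FPKM in Ep1 1 to 4, against 20.2, 20.3, 16.7 and 20.2 FPKM in Ctrl 1 to 4. The Ep1 values were about 2.02 times those of Ctrl in the mean, and its adjusted p was the smallest of the group (log2 change 0.98 ± 0.08 SE, limma adjusted p = 0.000129). Msn, which encodes moesin, had 7.22, 5.57, 8.06 and 10.1 FPKM in Ep1 1 to 4, against 3.40, 3.48, 3.45 and 3.26 FPKM in Ctrl 1 to 4. Its Ctrl values lay within 3.26 to 3.48 FPKM, and all Ep1 values were higher (log2 change 0.97 ± 0.14 SE, limma adjusted p = 0.00157). Rdx, which encodes the third protein of this family, radixin, had 16.5, 17.1, 17.1 and 16.7 FPKM in Ep1 1 to 4, against 18.4, 17, 15 and 17.1 FPKM in Ctrl 1 to 4. All Rdx values in Ep1 lay within the Ctrl range, and the log2 change was -0.0011 ± 0.06 SE (limma adjusted p = 0.993).

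Among the adhesion genes Zyx, Pdlim1, Vcl and Pdlim7 rose and Tln1 did not pass. Zyx, which encodes zyxin, a protein of strained filaments and focal adhesions, had 14.2, 12.2, 16 and 18.7 FPKM in Ep1 1 to 4, against 8.40, 8.86, 6.80 and 9.21 FPKM in Ctrl 1 to 4, without overlap (log2 change 0.79 ± 0.13 SE, limma adjusted p = 0.00286). Pdlim1 had 1.83, 1.72, 2.23 and 2.14 FPKM in Ep1 1 to 4, against 1.05, 0.965, 0.625 and 0.767 FPKM in Ctrl 1 to 4, again without overlap (log2 change 0.69 ± 0.10 SE, limma adjusted p = 0.00213). Pdlim1 had a Ctrl mean below 1 FPKM, so it entered the test through its Ep1 level, and it was also tested and called when the filter used the mean of all 8 libraries. Vcl, which encodes the adhesion protein vinculin, averaged 5.08 ± 0.583 FPKM in Ep1 and 2.91 ± 0.286 in Ctrl (SD over 4 libraries, log2 change 0.63 ± 0.09 SE, limma adjusted p = 0.00136), and Pdlim7 19.6 ± 2.82 FPKM in Ep1 and 14.1 ± 0.937 in Ctrl (log2 change 0.44 ± 0.10 SE, limma adjusted p = 0.0114). The integrin activator gene Tln1 averaged 8.38 ± 1.06 FPKM in Ep1 and 6.96 ± 0.510 in Ctrl and missed the threshold (limma adjusted p = 0.0764), although its groups did not overlap. Tln1 and Tpm2 lie 7753 bases apart on chromosome 4 in the table's coordinates.

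Lmna, which encodes the nuclear lamins A and C, had 18.9, 13.3, 22.4 and 23.3 FPKM in Ep1 1 to 4, against 9.10, 8.90, 8.20 and 10.3 FPKM in Ctrl 1 to 4. Every Ep1 library was higher, with Ep1 2 the lowest of them (log2 change 0.99 ± 0.16 SE, limma adjusted p = 0.00284). Srf had 22.2, 23.5, 23.6 and 25.9 FPKM in Ep1 1 to 4, against 20.2, 18.7, 14.3 and 20.4 FPKM in Ctrl 1 to 4. Its groups did not overlap, and Ctrl 3 was the lowest control (log2 change 0.37 ± 0.11 SE, limma adjusted p = 0.0338). It did not pass without Ep1 1, Ep1 2, Ep1 3, Ep1 4 or Ctrl 2 (limma adjusted p = 0.0539 to 0.0960).

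The size of the changes was set beside the levels. The 7 genes with a Ctrl mean above 40 FPKM (Actb, Actg1, Cfl1, Arpc2, Actr2, Capzb and Pfn1) had mean ratios of Ep1 to Ctrl between 0.878 and 1.41. The 8 genes with a mean ratio above 2 (Tpm4, Cnn2, Pdlim1, Myh9, Msn, Lmna, Tagln2 and Ezr) had Ctrl means between 0.853 and 19.3 FPKM. This is a description of levels in whole tissue, where a change in the number of cells of a type and a change in RNA per cell cannot be told apart.

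Paralogues were set against each other within each library, as the share of 1 gene in the summed FPKM of its family, which compares levels per length. Of 12 shares, 8 differed between Ep1 and Ctrl (exact permutation test, two-sided, Benjamini-Hochberg over the 12), each with p = 0.0286, the smallest that 4 libraries against 4 allow, and adjusted p = 0.0429. All 8 shares were higher in Ep1 in all 4 libraries. Except for Rock2, the first gene of each of these shares was itself separated between Ep1 and Ctrl in FPKM. The shares therefore partly restate the values above and are not separate evidence, and no shares of other gene families were tested. Of Myh9 and Myh10 together, Myh9 made up 36.1, 33.1, 40.6 and 41% in Ep1 1 to 4, against 21.3, 21.2, 17.8 and 19.4% in Ctrl 1 to 4. Its share averaged 37.7% ± 3.79 in Ep1 and 19.9% ± 1.66 in Ctrl (SD, n = 4 each). For the ezrin, radixin and moesin family, Ezr made up 63, 61.2, 61.7 and 59.9% in Ep1 1 to 4, against 48, 49.7, 47.5 and 49.8% in Ctrl 1 to 4. The smallest Ep1 share of Ezr was 59.9% and the largest Ctrl share 49.8%. Of the 4 tropomyosin genes, Tpm4 held 14.1, 13, 15.2 and 18.7% in Ep1 1 to 4, against 8.97, 9.57, 7.14 and 7.94% in Ctrl 1 to 4. With Tpm3-rs7 counted as a tropomyosin the share of Tpm4 was 9.11% ± 1.67 in Ep1 and 4.58% ± 0.659 in Ctrl (exact permutation p = 0.0286).

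The other shares that differed were those of Tln1, Pfn1, Arpc1b, Tagln2 and Rock2. Tln1 averaged 54% ± 5.49 in Ep1 and 43.4% ± 2.97 in Ctrl of Tln1 and Tln2, its partner Tln2 having fallen to 7.14 FPKM in Ep1, against 9.05 FPKM in Ctrl (log2 change -0.31, limma adjusted p = 0.0289). Pfn1 averaged 33% ± 1.87 in Ep1 and 24% ± 6.22 in Ctrl of Pfn1 and Pfn2, with Ctrl 3 at 14.7%; the mean difference was 9.0 percentage points with Ctrl 3 and 5.91 without it. Arpc1b averaged 8.64% ± 1.20 in Ep1 and 5.08% ± 1.17 in Ctrl of Arpc1b and Arpc1a. Tagln2 averaged 4.01% ± 0.784 in Ep1 and 2.22% ± 0.258 in Ctrl of Tagln2 and the neuronal paralogue Tagln3. Rock2 averaged 91.5% ± 0.113 in Ep1 and 90.6% ± 0.703 in Ctrl of Rock1 and Rock2, a difference of 0.885 percentage points. The shares of Cnn2 (17.4% ± 1.79 in Ep1 and 12.5% ± 2.72 in Ctrl, exact permutation adjusted p = 0.0762), Arpc5 (73.4% ± 1.61 in Ep1 and 70.9% ± 2.64 in Ctrl, adjusted p = 0.171), Actb (58.4% ± 1.02 in Ep1 and 57.4% ± 1.83 in Ctrl, adjusted p = 0.312) and Actn4 (56.6% ± 0.762 in Ep1 and 56.9% ± 1.74 in Ctrl, adjusted p = 0.743) did not pass. Without Ep1 3 or without Ep1 4, 6 shares were at the smallest possible p and 0 of 12 passed (smallest adjusted p = 0.0571 in each case); without any other library 7 or 8 passed.

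**Figure D3:**
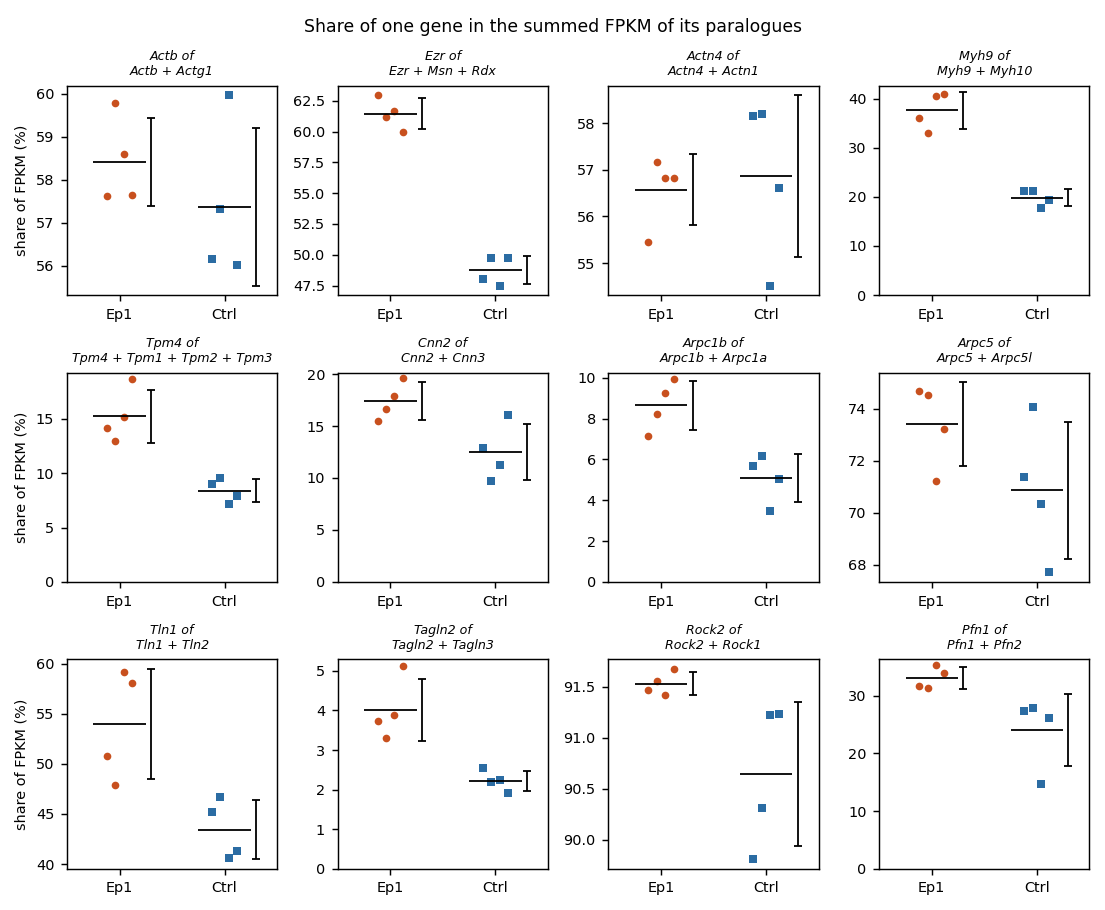
Share of the first gene in the summed FPKM of its family in each library, for 12 families; points are libraries, lines are means and bars at the side are SDs over 4 libraries. Axes start at different values. Ep1 and Ctrl do not overlap for Ezr, Myh9, Tpm4, Arpc1b, Tln1, Tagln2, Rock2 and Pfn1.

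Libraries within a group did not contribute evenly. Among the 29 genes called, Ep1 2 was the lowest Ep1 library for 24 and the highest for 0, and Ep1 4 was the highest for 17. Ctrl 3 was the lowest control for 22 and the highest for 0. In Ctrl 3, mitochondrial transcripts took 5.08% of fragments and the gene CT010467.1 took 1.46%, against at most 3.61% and 0.184% in any other library. Without Ctrl 3, 31 actin genes were higher, and without Ep1 2, 28 were.

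The energies were compared in a fit with 3 groups. Against Ctrl, 23 of 43 genes were higher at 10 J/cm2 and 0 lower, where 7.29% of all tested genes were higher and 3.26% lower. At 20 J/cm2, 27 were higher and 0 lower, where the shares over all genes were 13.9% and 9.66%. These comparisons share the 4 controls, and each energy has 2 libraries. The median log2 change of the group was 0.38 at 10 J/cm2 and 0.54 at 20 J/cm2. Without Ep1 1, which leaves Ep1 2 alone at 10 J/cm2 and assumes that it varies like the other groups, 1 gene was called there, and without Ctrl 1 or Ctrl 4, 14 were. Without Ep1 3 or Ep1 4 the count at 20 J/cm2 was 17 or 12.

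For 20 against 10 J/cm2 itself, 0 of 43 genes passed in limma, and voom on recovered fragments likewise called 0. Over all genes 1 was called (0.0068%). An unadjusted limma p under 0.05 was found for 9 of 43 genes, against 6.93% of all tested genes. The 5 genes with the smallest p were all higher at 20 J/cm2. Msn had 8.06 and 10.1 FPKM at 20 J/cm2, against 7.22 and 5.57 at 10 J/cm2 (log2 change 0.45 ± 0.13 SE, limma adjusted p = 0.644). Lmna had 22.4 and 23.3 FPKM at 20 J/cm2, against 18.9 and 13.3 at 10 J/cm2 (log2 change 0.50 ± 0.15 SE, limma adjusted p = 0.646). In both genes the 20 J/cm2 libraries were above the 10 J/cm2 ones, and Ep1 2 was lowest. Pdlim7 had 20.9 and 22.7 FPKM at 20 J/cm2, against 18.3 and 16.3 at 10 J/cm2, and Flna 29.4 and 31.6 FPKM at 20 J/cm2, against 26.2 and 20.5 at 10 J/cm2. Zyx had 16 and 18.7 FPKM at 20 J/cm2, against 14.2 and 12.2 at 10 J/cm2. In all, 35 of 43 genes had a higher mean at 20 J/cm2, against 52.2% of all tested genes. Without Ep1 2 this was 25 of 43, against 49.3%, and without Ep1 4 it was 32, against 52.3%. The group's median log2 change for 20 against 10 J/cm2 was 0.11 with all libraries. It was 0.06 without Ep1 2, 0.09 without Ep1 4, 0.16 without Ep1 1 and 0.15 without Ep1 3. Each of these fits leaves 1 library at an energy, so small p-values were not counted there. How far the 9 genes rest on single libraries is therefore not settled. Without Ctrl 3 it was 35, and 14 genes had an unadjusted limma p under 0.05, against 12.4% of all tested genes.

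**Figure D4:**
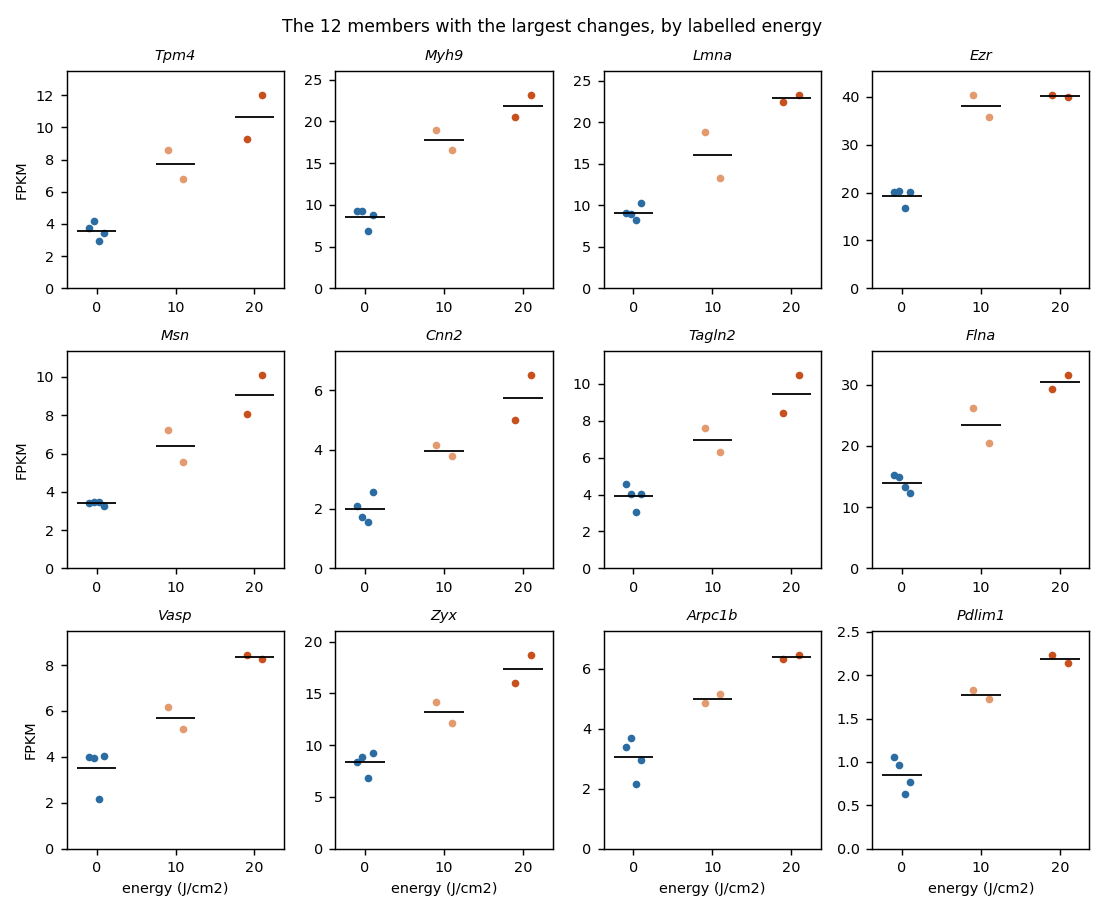
FPKM by labelled energy for the 12 called genes with the largest changes and no overlap between Ep1 and Ctrl; 0 J/cm2 is Ctrl (4 libraries), with 2 libraries at each energy, and lines are means. Both energies lie above Ctrl in each panel because the genes were chosen for no overlap. The test of 20 against 10 J/cm2 called none of these genes.

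The promoters of the group were searched for the CArG box, the SRF site, which is CC, 6 bases that are each A or T, and GG. RefSeq windows from 250 bases before to 50 bases after a start site (GRCm38.p6) were matched for 40 of the 44 genes. Actb, Cotl1, Diaph1 and Rock1 had no matched window, so their promoters were not searched. A CArG box lay in the windows of 5 of the 40 genes, 12.5%, against 1.81% of 27025 genes with windows of the same length. Of 120 other actin pathway genes with windows, from the lists described below, 11 held one, 9.17%, so the higher share is not particular to the group. The 250 bases before the start of these 5 genes are shown because they carry the sites, in lower case with each CArG box in capitals, 5′ to 3′ on the gene's strand.
Srf: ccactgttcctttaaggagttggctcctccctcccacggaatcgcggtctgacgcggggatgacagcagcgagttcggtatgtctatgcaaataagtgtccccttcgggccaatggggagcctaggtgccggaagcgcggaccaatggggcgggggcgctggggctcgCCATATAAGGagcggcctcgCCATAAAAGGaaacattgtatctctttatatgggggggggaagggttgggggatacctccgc
Actg1: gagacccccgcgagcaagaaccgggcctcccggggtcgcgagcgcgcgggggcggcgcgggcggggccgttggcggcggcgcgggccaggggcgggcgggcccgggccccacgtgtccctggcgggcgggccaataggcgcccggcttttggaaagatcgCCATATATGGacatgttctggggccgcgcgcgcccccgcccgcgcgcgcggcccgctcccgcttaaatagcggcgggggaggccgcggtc
Vcl: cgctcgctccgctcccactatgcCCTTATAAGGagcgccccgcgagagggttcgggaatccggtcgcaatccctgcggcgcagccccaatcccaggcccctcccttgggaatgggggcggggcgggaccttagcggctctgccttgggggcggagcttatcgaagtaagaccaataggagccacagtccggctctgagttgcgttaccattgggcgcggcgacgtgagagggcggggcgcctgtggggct
Cnn2: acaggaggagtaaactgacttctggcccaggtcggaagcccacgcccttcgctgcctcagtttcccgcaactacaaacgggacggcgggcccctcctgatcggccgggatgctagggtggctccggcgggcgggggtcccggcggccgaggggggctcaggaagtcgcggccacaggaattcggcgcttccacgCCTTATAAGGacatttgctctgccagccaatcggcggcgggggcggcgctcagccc
Myl9: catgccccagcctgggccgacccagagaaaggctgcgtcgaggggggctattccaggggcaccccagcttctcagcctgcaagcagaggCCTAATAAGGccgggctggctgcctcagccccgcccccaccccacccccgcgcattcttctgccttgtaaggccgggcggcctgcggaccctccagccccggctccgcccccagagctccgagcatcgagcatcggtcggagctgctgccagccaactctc

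The Srf window, chr17:46556163-46556412 on the minus strand, held 2 boxes, beginning 82 and 62 bases before the start. The single boxes began 90 bases before the start in Actg1 (chr11:120348496-120348745 on the minus strand), 227 in Vcl (chr14:20929148-20929397 on the plus strand), 56 in Cnn2 (chr10:79988350-79988599 on the plus strand) and 161 in Myl9 (chr2:156775214-156775463 on the plus strand). Vcl and Cnn2 carry the same 10 bases. Of the 5 genes, Srf, Actg1, Vcl and Cnn2 rose and Myl9 did not pass. Their log2 changes ran from -0.08 to 0.96 with a median of 0.37, and those of the 34 other tested genes with a window had a median of 0.51, 23 of them called. The TEAD letters CATTCC, on either strand, lay in 9 of 40 windows (22.5%, against 16.6% of all genes and 20% of the 120 other pathway genes). The AP-1 letters TGANTCA, on either strand, lay in 5 (12.5%, against 8.97% of all genes and 8.33% of the other pathway genes), those of Ezr, Zyx, Lmna, Actn4 and Myl12a. Both strands were searched for each motif, and no TEAD or AP-1 match overlapped a CArG box. A match describes only the letters in the window.

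Other genes of the pathway were counted in 8 lists that hold none of the 44, 153 genes in the table and 133 tested. Of these, 43 rose (32.3%) and 7 fell (4 fell without Ep1 1), with a median log2 change of 0.12. Over all tested genes 15.5% were higher and 10.6% lower, and each list below is to be read beside these shares. Among the tested genes of the lists described below, Flnc, Lcp1, Cd44 and Anxa1 averaged under 1 FPKM in Ctrl and were tested only through their Ep1 level. These genes are named after their values were seen. With the filter on the mean of all 8 libraries, 40 of 130 rose and 7 fell. The focal adhesion and membrane linkage list had the most, 15 of 24 higher, Cd44 and Anxa1 among them, and 1 lower (Tln2, above). Its 3 genes with the smallest p were Anxa2, a membrane-binding annexin (6.71 ± 1.13 FPKM in Ep1 and 1.78 ± 0.360 in Ctrl, SD over 4 libraries, log2 change 1.47, limma adjusted p = 0.000177), Ptk2, the focal adhesion kinase (18.5 ± 1.20 FPKM in Ep1 and 12.2 ± 0.193 in Ctrl, log2 change 0.56, limma adjusted p = 0.000431), and Ahnak, a partner of Anxa2 (3.76 ± 0.692 FPKM in Ep1 and 1.71 ± 0.252 in Ctrl, log2 change 0.81, limma adjusted p = 0.00176). The list of MRTF and SRF genes outside the group holds the coactivators as well as target genes. Of its 10 tested genes 5 rose and 0 fell. Those that rose were the coactivator genes Mrtfa and Mrtfb and the genes Ccn1, Fhl2 and Tgfb1i1. Ccn2 did not pass, at 7.65 FPKM in Ep1 and 7.48 in Ctrl (log2 change 0.003, limma adjusted p = 0.993), nor did Fhl1, Csrp1, Srfbp1 and Itgb1bp1. Mrtfa, Fhl2 and the genes that did not pass are named after their values were seen. Ccn1, a secreted matrix protein, averaged 16.3 ± 4.79 FPKM in Ep1 and 4.27 ± 0.527 in Ctrl (log2 change 1.67, limma adjusted p = 0.000929). Tgfb1i1, a LIM protein of focal adhesions, averaged 5.77 ± 0.957 FPKM in Ep1 and 2.32 ± 0.200 in Ctrl (log2 change 1.02, limma adjusted p = 0.000448), and Mrtfb 41.6 ± 2.05 FPKM in Ep1 and 30.6 ± 1.04 in Ctrl (log2 change 0.43, limma adjusted p = 0.00103).

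Bundling and crosslinking genes split into 7 higher (41.2%) and 3 lower of 17. Pdlim4 averaged 5.44 ± 0.988 FPKM in Ep1 and 2.25 ± 0.740 in Ctrl (log2 change 1.01, limma adjusted p = 0.00513). Flnc averaged 1.25 ± 0.328 FPKM in Ep1 and 0.323 ± 0.110 in Ctrl (log2 change 0.76, limma adjusted p = 0.00372).

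Formins, Ena/VASP and monomer-binding genes had 4 of 19 higher and 2 lower. The higher share was 21.1%, near the 15.5% of all tested genes. Fmnl1 stood at 45.5 ± 7.64 FPKM in Ep1 and 25.3 ± 1.30 in Ctrl (log2 change 0.81, limma adjusted p = 0.00160). Cap1 stood at 89.1 ± 6.36 FPKM in Ep1 and 65.4 ± 2.38 in Ctrl (log2 change 0.44, limma adjusted p = 0.00171). Fmn1 fell, at 1.39 ± 0.178 FPKM in Ep1 and 2.38 ± 0.367 in Ctrl (log2 change -0.49, limma adjusted p = 0.00639). Severing, capping and turnover genes outside the group had 4 of 18 higher, 22.2%, also near that share, and 0 lower. The coronin gene Coro2a led them at 9.41 ± 0.988 FPKM in Ep1 and 5.36 ± 0.426 in Ctrl (log2 change 0.71, limma adjusted p = 0.000731). Wdr1, a cofilin partner, stood at 20.9 ± 1.57 FPKM in Ep1 and 15.5 ± 0.717 in Ctrl, and Coro2b at 47.7 ± 3.52 FPKM in Ep1 and 35.7 ± 2.61 in Ctrl. The remaining Arp2/3, WASP and WAVE genes had 2 of 18 higher and 0 lower, 11.1%, below the share of all tested genes. These were Wipf3 at 37 ± 7.07 FPKM in Ep1 and 22.3 ± 4.44 in Ctrl (log2 change 0.71, limma adjusted p = 0.0151) and Wipf2 at 14.9 ± 0.387 FPKM in Ep1 and 13 ± 0.698 in Ctrl (log2 change 0.19, limma adjusted p = 0.0314).

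**Figure D5:**
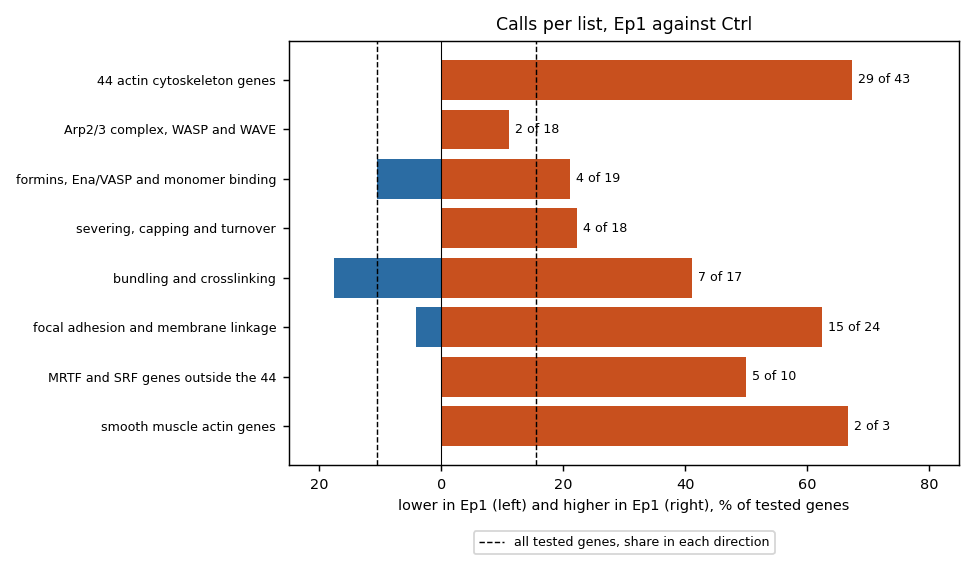
Share of tested genes called higher (orange, right) and lower (blue, left) in Ep1, for the 44 genes and for 7 lists of other actin pathway genes, with the count of higher genes beside each bar. Dashed lines give the shares over all tested genes, 15.5% higher and 10.6% lower.

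Smooth muscle actin genes were scarce: 3 of 12 were tested and 2 rose, Acta2 averaging 3.46 ± 0.394 FPKM in Ep1 and 2.44 ± 0.419 in Ctrl (log2 change 0.38, limma adjusted p = 0.0229) and Smtn 3.08 ± 0.303 FPKM in Ep1 and 1.91 ± 0.355 in Ctrl (log2 change 0.49, limma adjusted p = 0.00836). Myh11, Tagln and Cnn1, which define smooth muscle, were below 1 FPKM in both groups, at 0.870, 0.188 and 0.294 FPKM in Ep1, and 0.754, 0.103 and 0.189 in Ctrl.

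Cell type markers were counted against the same shares over all tested genes, 15.5% higher and 10.6% lower. The summed FPKM of Ep1 and Ctrl did not overlap for the astrocyte, the fibroblast and meningeal, the red blood cell, and the platelet and neutrophil markers, and overlapped for the other 6 lists. Of 15 tested endothelial markers 5 rose and 7 fell, and the list summed to 108 to 141 FPKM in Ep1 and 119.8 to 132 in Ctrl. Of 8 smooth muscle and pericyte markers 1 rose and 3 fell (56.4 to 61 FPKM in Ep1 and 60.7 to 69.6 in Ctrl). Of 11 microglia and macrophage markers 4 rose and 6 fell (131 to 152 FPKM in Ep1 and 140.4 to 151 in Ctrl). Of 10 astrocyte markers 5 rose and 0 fell (591 to 634 FPKM in Ep1 and 544 to 564 in Ctrl). Gfap averaged 70.9 FPKM in Ep1 and 31.7 in Ctrl, and Aldoc 179 FPKM in Ep1 and 143 in Ctrl. Slc1a2, the astrocyte marker with the highest mean, averaged 195 FPKM in Ep1 and 216 in Ctrl and was not called (limma adjusted p = 0.0831). For fibroblast and meningeal markers 1 of 7 rose, Mgp (19.3 ± 3.95 FPKM in Ep1 and 8.74 ± 1.92 in Ctrl), and 0 fell (377 to 476 FPKM in Ep1 and 282 to 359 in Ctrl). Most of that sum was Ptgds, at 370 ± 46.0 FPKM in Ep1 and 313 ± 34.3 in Ctrl, which was not called (limma adjusted p = 0.124). Red blood cell markers rose in 4 of 5 cases (88.5 to 295 FPKM in Ep1 and 26.1 to 35.9 in Ctrl), and platelet and neutrophil markers in 1 of 3 (2.12 to 14 FPKM in Ep1 and 1.10 to 2.07 in Ctrl), namely S100a9, with Ly6g at 0 in all libraries. The 3 platelet and neutrophil markers tested, S100a9, S100a8 and Pf4, and the red blood cell marker Alas2 averaged under 1 FPKM in Ctrl and were tested only through their Ep1 level. Of 10 neuron markers 1 rose and 1 fell (1487 to 1643 FPKM in Ep1 and 1539.7 to 1693 in Ctrl), and of 10 oligodendrocyte markers 0 rose and 3 fell (969 to 1257 FPKM in Ep1 and 937 to 1261 in Ctrl). Choroid plexus markers had 0 of 5 called (17.7 to 434 FPKM in Ep1 and 374 to 712 in Ctrl). No other marker on these lists was at 0 in all libraries, and the part of these cell types in the actin result was not tested.

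Other genes share exon bases with a neighbour on the opposite strand in GENCODE M21, and the counting is not stated to use strand. Exons of Ap3m1 cover 25.5% of the Vcl exon bases, exons of Pdap1 18.2% of Arpc1b, and exons of Snx32 16.5% of Cfl1, so their fragments cannot be told apart there. Pdap1 averaged 14.7 FPKM over the 8 libraries, against 4.37 FPKM for Arpc1b, and Ap3m1 6.92 FPKM, against 4.0 FPKM for Vcl.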

How the data were processed

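RNA from 8 C57BL/6 mouse brain libraries was sequenced on an Illumina protocol, per the labels. The values are FPKM as deposited by the authors; Bowtie 0.12.2 and mm8 are named without a role in the submitters' processing notes, while 99.4% of 55141 identifiers had the same start and end in GENCODE M21 (GRCm38). The counter, strandedness and filters are not given in the sources used here. Columns were assigned to libraries by letter and number, an inference. Multiplied by the deposited gene length, 100% of values came out as whole fragments within 0.01, giving 15038147 to 17772972 fragments per library.

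Testing used log2(FPKM + 1), a scale that understates changes of low genes, on the 14710 genes that averaged 1 FPKM or more in Ep1 or in Ctrl, with limma 3.58.1 in R 4.3.3 (trended, robust empirical Bayes; Benjamini-Hochberg at 0.05). The pipeline was tested on simulated data. Paralogue shares used an exact permutation test. Python 3.11.15, numpy 2.4.6, pandas 2.3.3 and matplotlib 3.10.9 were used. The genes, lists and tests were chosen with earlier results of these data known. Values in every library are given for the 12 called genes with the largest change and no overlap, and for 12 chosen genes (Actb, Actg1, Srf, Ezr, Msn, Rdx, Myh9, Myh10, Cfl1, Pfn1, Rock1 and Rock2); up to 3 called genes of each pathway list with the smallest p are named, 5 for the energies, and markers only where a result turns on them. The values of 1 gene that this rule names, and those of 1 of the 8 pathway lists on its own, are not reported here. Alternatives changed the pseudocount, filter, scaling, variance model, unit, block and each library in turn. Promoters are from RefSeq (GRCm38.p6).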

Additional observations from a re-analysis of the deposited data

Results flagged for a closer look

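In 7 of 88 groups of 4 libraries, 1 library stood so far from the other 3 that its gap to the nearest exceeded the limit of Dixon's test; chance gives about 1 in 20 groups. Of these, 4 were in Ctrl 3. Pfn1 stood at 25.5 FPKM in Ctrl 3, against 45 to 45.9 in the other controls, Vasp at 2.15, against 3.94 to 4.03, and Ezr at 16.7, against 20.2 to 20.3. Actr2 stood above the others in Ctrl 3, at 60.5 FPKM, against 46.4 to 48.7. In Ep1 2, Ezr was at 35.8 FPKM, against 40.1 to 40.4 in the other Ep1 libraries, and Actg1 at 262, against 286 to 291. Myh10 was at 29.9 FPKM in Ep1 3, against 33.4 to 33.7. No actin gene differed between the energies past the threshold.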

How the results depend on the processing

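The count of higher actin genes in Ep1 was 25 to 31 with any 1 library left out and 26 to 29 in the other settings, and no gene called in all libraries changed sign in any setting. The count of lower genes was 0 except with quantile normalization, where it was 1 (Myh10). Calls were lost in at least 1 setting for Srf (7 settings, largest adjusted p = 0.0960), Capzb (7, 0.0810), Actg1 (6, 0.0809) and Tpm2 (6, 0.0613), and for no other gene called; limma gave each of these values. At 10 J/cm2 the count of 23 was 10 with no filter on low values, 4 with the replicate block and 1 to 26 with a library left out (14 without Ctrl 1 or Ctrl 4). At 20 J/cm2 the count of 27 was 12 to 30 with a library left out; 1 gene was lower there with quantile normalization (Myh10) and 0 to 1 with a library left out (Actr2 without Ctrl 3). For 20 against 10 J/cm2 the count stayed 0 in every setting run. Of the other pathway genes 7 fell, 13 with quantile normalization, 13 without mitochondrial genes and CT010467.1, 15 with voom and 4 to 8 with a library left out. Shares past the threshold numbered 8, also as log2 ratios, and 0 to 8 with a library left out; 7 shares at the smallest p are needed for any to pass. Allowing 1 mismatch in the outer bases raised the members with a CArG box to 9 of 40 (22.5%), against 15.8% of all genes and 15% of the 120 other pathway genes. The cause of the other shifts was not tested.

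Replicate numbers did not pair the samples: same-numbered libraries' deviations from their group means correlated by -0.0536 to 0.0602 across genes. With the replicate block 26 actin genes were higher in Ep1, and over all genes 1739 were higher and 987 lower, against 2275 and 1566 without it. Over all genes 1045 were lower with no filter on low values, and 860 to 1716 with a library left out. An exact sign-flip permutation test of shares over the 4 numbers cannot go below p = 0.125 and was not counted.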
